A study of Rattus norvegicus with 6 samples.

Results

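The MHC class II presentation genes of the rat were examined in cultured spinal cord neurons after silencing of galectin-3 (GAL3). The genes were the rows of the expression matrix with the symbols CIITA, CD74, RT1-DA, RT1-DB1, RT1-BA, RT1-BB, RT1-DMA and RT1-DMB, and all 8 were found among its 17648 genes. The neurons came from neonatal Sprague-Dawley rats, and Ara-C was added to the cultures to limit dividing cells. RNA of 6 libraries was sequenced, 3 transfected with a control small interfering RNA (Glu + siR-Con) and 3 with an siRNA against GAL3 (Glu + siR-GAL3). The paper and the design text give 10 μM glutamate for 1 h to both groups, after 3 days of culture and before 16 h without glutamate. The treatment label of the siR-Con samples instead names saline, which is 0 μM glutamate, and that of the siR-GAL3 samples names a knockout. If the labels were right, glutamate and GAL3 could not be told apart in any comparison below. The paper says of its data in general that they came from independent repeats, without naming these libraries, and the labels do not say it, so the p-values may measure technical spread only.

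MHC class II molecules are surface proteins made of an alpha and a beta chain, and they show peptides from swallowed or endosomal proteins to CD4+ T cells. The invariant chain CD74 blocks the groove of new molecules and leads them to endosomes, where cathepsins cut it down and the DM heterodimer exchanges the remaining fragment for a peptide. In the spinal cord, class II is known from microglia, macrophages and dendritic cells, in which the transactivator CIITA switches the genes on, often after interferon gamma. Its partners bind the X and Y boxes in front of each class II gene.

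In the rat, RT1-D is the counterpart of human HLA-DR and RT1-B that of HLA-DQ. RefSeq gave a promoter for 6 of the 8 genes (assembly GRCr8). The 150 bases before the start site of the chains of both molecules are shown, because the RT1-D chains lay apart between the groups and the RT1-B chains overlapped. Capitals mark an X box core (CCNAG directly followed by NNAC) or a Y box (CCAAT, read as ATTGG on the other strand), searched on both strands, and no marked site overlapped another. The windows lie at chr20:4515265-4515414 (plus strand), chr20:4560163-4560312 (minus strand), chr20:4576907-4577056 (plus strand) and chr20:4604119-4604268 (minus strand), and each is printed 5′ to 3′ along its gene.
RT1-DA: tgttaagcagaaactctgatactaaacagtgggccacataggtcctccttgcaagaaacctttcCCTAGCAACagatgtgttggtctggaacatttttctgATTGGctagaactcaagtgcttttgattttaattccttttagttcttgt
RT1-DB1: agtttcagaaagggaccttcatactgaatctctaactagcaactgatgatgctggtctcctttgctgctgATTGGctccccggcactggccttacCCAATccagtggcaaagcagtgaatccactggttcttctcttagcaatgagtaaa
RT1-BA: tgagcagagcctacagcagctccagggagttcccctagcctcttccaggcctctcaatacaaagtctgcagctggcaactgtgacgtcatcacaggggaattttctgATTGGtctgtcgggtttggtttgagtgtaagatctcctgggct
RT1-BB: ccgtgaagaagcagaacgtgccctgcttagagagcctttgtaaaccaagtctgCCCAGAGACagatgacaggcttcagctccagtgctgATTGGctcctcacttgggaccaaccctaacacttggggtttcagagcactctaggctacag
In RT1-DA the X box core CCTAGCAAC began 86 bases before the start site and the Y box 49 bases before it, with 28 bases between them. RT1-BB had CCCAGAGAC 97 bases and a Y box 61 bases before the start, with 27 bases between them. RT1-DB1 had Y boxes 80 and 55 bases before its start and RT1-BA had a Y box 43 bases before it. Neither held the exact letters of the X box core. Sites with another base were not searched for, so an X box may be present in both. A stretch of RT1-DB1 before its Y boxes differs from the RT1-DA site only in the first base. In the full windows, from 250 bases before to 50 after the start, CD74 had an X box core 220 bases and a Y box 189 bases before the start, with 22 bases between them, and another X box core, CCCAGATAC, after the start. RT1-BB had a further Y box 172 bases before its start, and RT1-DMA had Y boxes at 64 and 34 bases. Of 33469 RefSeq promoter windows of this length, 17.7% held the X box core, 37.5% the Y box and 6.49% both. The matches describe these windows, and binding was not measured.

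Exactly equal values divided them into 3 sets, the first with replicate 1 of both groups, the second with replicate 3 of both groups and siR-Con replicate 2, and the last with siR-GAL3 replicate 2 by itself. Within a set, any pair of libraries had 1312 to 1463 nonzero values in common, against 238 to 264 across sets. Wherever 3 values of a group are given, they stand in the order of replicates 1, 2 and 3. On the first principal component siR-GAL3 replicate 2 lay at 27.9 and the other libraries between -8.52 and -1.94. The values were on a linear scale derived from FPKM (fragments scaled by gene length and by the fragments mapped), corrected by the authors within groups, with column totals of 64313 to 64714, so the depth of each library is unknown. The targeted gene, listed as LGALS3, had means of 64.8 ± 11.7 (SD, n = 3) in siR-Con and 16.4 ± 17.1 in siR-GAL3, with no overlap (log2 fold change -2.91, limma unadjusted p = 0.0462, adjusted p = 0.571). Its siR-GAL3 replicate 1 was listed at -1.64, and omitting it gave -1.35 on the log2 scale.

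The class II genes were read at a low level, and the RT1-D chains were higher in each siR-GAL3 library than in each siR-Con library. RT1-DB1 was 6.002-fold and RT1-DA 1.86-fold higher by the ratio of means. The RT1-DB1 ratio rests on siR-Con values near 0 and was 9.06 without siR-Con replicate 1, and between 5.05 and 6.65 without any other single library. CD74, both RT1-B chains, both DM chains and CIITA overlapped between the groups. On the log2(value + 1) scale none of the 8 genes passed both |log2 fold change| > 1 and unadjusted P < 0.05, called the fold criteria here, and none had an adjusted p under 0.05. The thresholds are those of the study's bioinformatics methods, and the scale was chosen here. On the values without log transformation, where the threshold is a difference of 1 unit, 151 of all genes passed as higher and 165 as lower. Among them were 0 of the 8 class II genes. Of the 48 values of the class II genes 1 reached 1, so genes this low could hardly pass either threshold. That none passed is therefore not a result about them. RT1-DB1 met the fold criteria when a pseudocount of 0.01, chosen after seeing the data, took the place of 1.

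**Figure D1:**
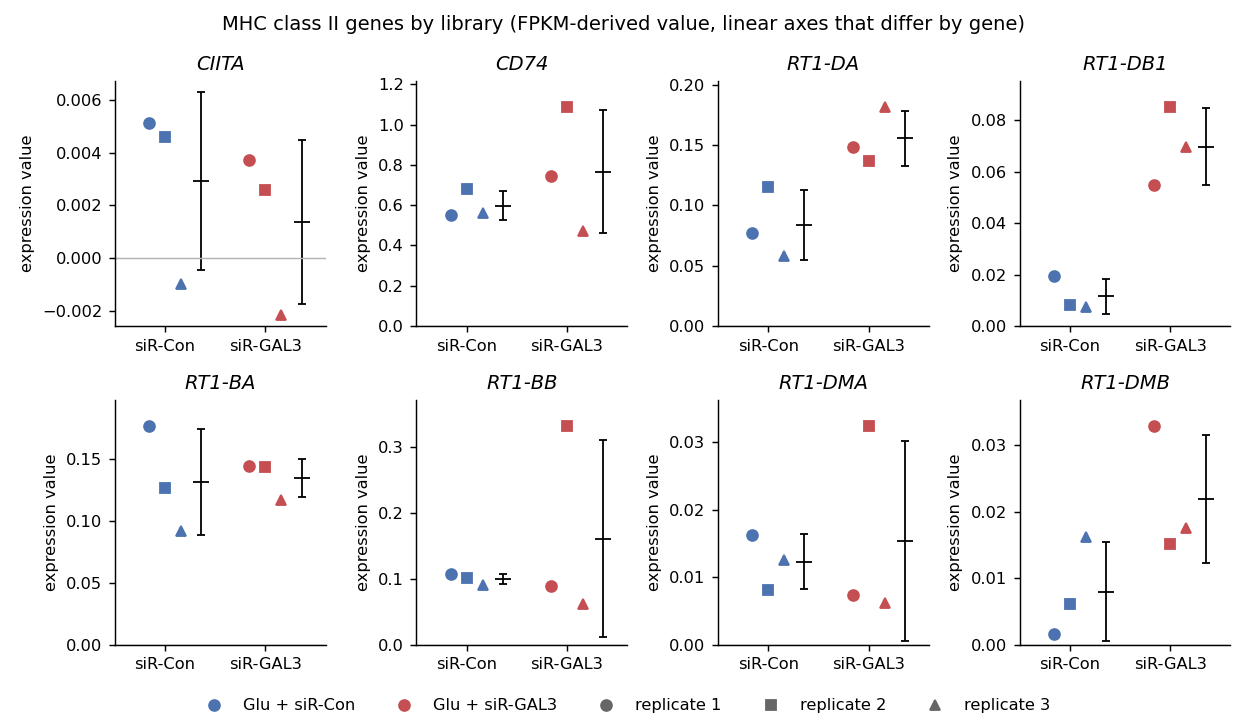
Expression value of each MHC class II gene in the 6 libraries (points, shaped by replicate and coloured by group), on linear axes that differ by gene, with the group mean and SD (n = 3) beside the points. RT1-DA and RT1-DB1 are the 2 genes in which the siR-GAL3 points lie above all siR-Con points, while in RT1-BB siR-GAL3 replicate 2 at 0.332 lies above all others and its 2 group mates below them.

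FPKM is a measure per length, but the later corrections shifted values by amounts not known here, so the order of the lowest genes is that of the deposited values and may not be that of the transcripts. Over the 6 libraries CD74 had the highest mean, 0.681, and it was higher than RT1-BA, at 0.133, in 6 of 6 libraries with no overlap of the ranges. RT1-BB at 0.130 and RT1-DA at 0.120 followed, and neighbours among RT1-BA, RT1-BB and RT1-DA did not differ beyond the spread. RT1-DB1, with a mean of 0.0407, was below RT1-DA in 6 of 6 libraries, although the ranges overlapped. RT1-DMB at 0.0149 and RT1-DMA at 0.0138 came next, each with a range that overlapped that of the gene before it. CIITA was lowest, with a mean of 0.00215 that was under RT1-DMA in 6 of 6 libraries. CD74 stood at the 45.3 percentile of all genes by mean, and the other 7 genes between the 6.46 and the 28.4 percentile. Of the 48 values of the class II genes, 1 reached 1, which was CD74 in siR-GAL3 replicate 2. No class II gene therefore had the mean of 1 required in the main fit, and their fold changes come from the same limma fit without that filter, over all 17648 genes. These are on the log2(value + 1) scale, on which differences of low genes come out small.

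The RT1-D alpha chain RT1-DA had values of 0.0773, 0.116 and 0.0582 in the siR-Con libraries against 0.148, 0.137 and 0.181 in the siR-GAL3 libraries. The groups did not overlap, and replicate 2 was the closest library in both groups. The means were 0.0837 ± 0.0293 and 0.156 ± 0.0230 (SD, n = 3 each). The log2 fold change was 0.09 (SE 0.02, 95% interval 0.0321 to 0.154, limma unadjusted p = 0.0102, Benjamini-Hochberg adjusted p = 0.375). In the exact permutation test the two-sided p was 0.1, the smallest that 3 against 3 allow. Within the first library set siR-GAL3 was 0.0712 above siR-Con, and within the second 0.0946 above the siR-Con mean.

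RT1-DB1, the beta chain that pairs with RT1-DA, had values of 0.0195, 0.00814 and 0.00726 in the siR-Con libraries against 0.0548, 0.0851 and 0.0694 in the siR-GAL3 libraries. All siR-Con libraries were near 0, and the lowest siR-GAL3 library lay above the highest of them. The means were 0.0116 ± 0.00681 and 0.0698 ± 0.0151 (SD, n = 3 each). The log2 fold change was 0.08 (SE 0.01, 95% interval 0.0514 to 0.110, limma unadjusted p = 0.000636, adjusted p = 0.231, exact permutation p = 0.1). The difference was 0.0354 within the first library set and 0.0617 within the second. With a pseudocount of 0.1 in place of 1 the log2 fold change was 0.60. RT1-DB1 has a close copy, RT1-DB2, between which the counting could split reads, so its level is uncertain. RT1-DB2 had means of 0.00978 and 0.0133 with overlapping groups (log2 fold change 0.0050, limma unadjusted p = 0.631).

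Of the 8 class II genes, 2 were without overlap and higher in siR-GAL3, RT1-DA and RT1-DB1, against 9.01% of all genes, and 7.86% of the 9153 genes with a mean under 1. The same 2 genes had an unadjusted p under 0.05 in limma and were higher, against 5.03% of all genes and 5.58% of those with a mean under 1. None was without overlap and lower, against 7.86% of all genes and 5.65% of those with a mean under 1, and none had an unadjusted p under 0.05 and was lower, against 4.17% and 3.9%. Of all genes, 0.153% met the fold criteria as higher and 0.051% as lower. No gene had an adjusted p under 0.05 in the fit without a block. In the main fit, which held no class II gene, 106 genes did with a block for library set and 167 without siR-GAL3 replicate 2. The median log2 fold change of the 8 genes was 0.0451 and that of all genes 0.000509. Of the 8 genes 7 were higher and 1 lower, against 9008 higher and 8640 lower of all 17648 genes. Among the 7, RT1-BA and RT1-DMA had log2 fold changes of 0.0049 and 0.0043. With a block for library set, CD74, RT1-BA, RT1-BB and RT1-DMA were lower.

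**Figure D2:**
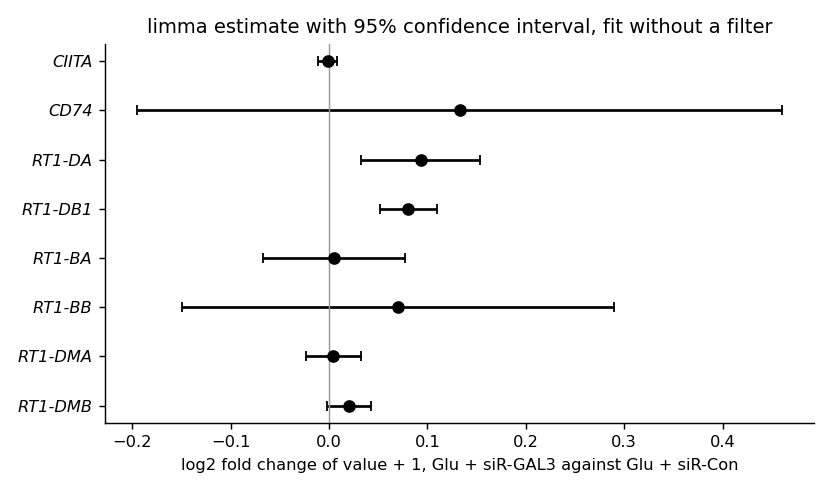
Log2 fold change of each MHC class II gene, siR-GAL3 against siR-Con, on the log2(value + 1) scale, with 95% intervals from the limma fit without a filter. The intervals of RT1-DA (0.0321 to 0.154) and RT1-DB1 (0.0514 to 0.110) lie above 0, and those of the other 6 genes include 0.

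Both RT1-B chains overlapped between the groups. RT1-BA, the alpha chain, had values of 0.177, 0.126 and 0.0913 in the siR-Con libraries against 0.144, 0.143 and 0.117 in the siR-GAL3 libraries. The siR-GAL3 values lay inside the siR-Con range, with means of 0.131 ± 0.0429 and 0.135 ± 0.0153 (SD, n = 3 each). The log2 fold change was 0.0049 (95% interval -0.0678 to 0.0775, limma unadjusted p = 0.873).

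RT1-BB, the beta chain, had values of 0.107, 0.101 and 0.0907 in the siR-Con libraries against 0.0888, 0.332 and 0.0608 in the siR-GAL3 libraries. The siR-Con values were close together, siR-GAL3 replicates 1 and 3 lay below all of them, and replicate 2 lay above. The means were 0.0994 ± 0.00805 and 0.1604 ± 0.149 (SD, n = 3 each), with a log2 fold change of 0.07 (95% interval -0.150 to 0.290, limma unadjusted p = 0.458). Its direction rested on siR-GAL3 replicate 2, which when left out gave -0.0328 on the log2 scale (limma unadjusted p = 0.0746).

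The ratio of alpha to beta chain was taken for each molecule. The log2 ratio of RT1-DA to RT1-DB1 had values of 1.99, 3.83 and 3.00 in the siR-Con libraries against 1.44, 0.69 and 1.39 in the siR-GAL3 libraries. The groups did not overlap, with means of 2.94 ± 0.92 and 1.17 ± 0.42 (SD, n = 3 each), so the alpha chain exceeded the beta chain in every library but by less in siR-GAL3. The siR-Con ratios rest on RT1-DB1 values near 0, which the later corrections shifted by amounts not known here. RT1-DB2 may also have taken reads of RT1-DB1, so the size of this ratio is uncertain. The log2 ratio of RT1-BA to RT1-BB ranged from 0.0098 to 0.73 in siR-Con and from -1.21 to 0.95 in siR-GAL3, and siR-GAL3 replicate 2 was the only library in which RT1-BB was above RT1-BA. The log2 ratio of RT1-DMA to RT1-DMB was 1.13 ± 1.95 in siR-Con and -0.86 ± 1.73 in siR-GAL3 (SD, n = 3 each) and overlapped. These ratios are descriptions of the values already tested by gene.

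CD74, the invariant chain, had values of 0.551, 0.679 and 0.559 in the siR-Con libraries against 0.743, 1.09 and 0.472 in the siR-GAL3 libraries. The siR-GAL3 group held both the highest and the lowest value. The means were 0.596 ± 0.0717 and 0.767 ± 0.308 (SD, n = 3 each). The log2 fold change was 0.13 (SE 0.13, 95% interval -0.19 to 0.46, limma unadjusted p = 0.354, exact permutation p = 0.6). Within the first library set siR-GAL3 was 0.192 above siR-Con, and within the second it was 0.147 below the siR-Con mean (a difference of -0.147). CD74 made up 51.0% to 66.9% of the summed class II values.

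The DM chains, which catalyse peptide exchange, were near 0 in all libraries. RT1-DMA had values of 0.0162, 0.00806 and 0.0125 in the siR-Con libraries against 0.00735, 0.0325 and 0.00615 in the siR-GAL3 libraries. As in RT1-BB and CD74, siR-GAL3 replicate 2 was the highest library and replicate 3 the lowest (log2 fold change 0.0043, limma unadjusted p = 0.717). RT1-DMB had values of 0.0016, 0.00607 and 0.0161 in the siR-Con libraries against 0.0329, 0.0152 and 0.0176 in the siR-GAL3 libraries. The groups overlapped only where siR-Con replicate 3 exceeded siR-GAL3 replicate 2 (log2 fold change 0.02, 95% interval -0.0027 to 0.0423, limma unadjusted p = 0.0739, exact permutation p = 0.2).

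CIITA, the transactivator, had values of 0.00514, 0.00458 and -0.000983 in the siR-Con libraries against 0.00371, 0.00258 and -0.00216 in the siR-GAL3 libraries. It was listed below 0 in 2 libraries, both of the second library set, and no library stood out. Its log2 fold change was -0.0016 (95% interval -0.0113 to 0.0080, limma unadjusted p = 0.686). At values this low no difference in CIITA was detectable.

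The class II genes of the rat lie together on chromosome 20, with class I peptide-loading genes between them. From RT1-DA to RT1-DMA in the RefSeq order stand RT1-DB2, RT1-DB1, RT1-BA, RT1-BB, RT1-DOB, TAP2, PSMB8, TAP1, PSMB9 and RT1-DMB, together with a pseudogene. PSMB8 and PSMB9, subunits of the immunoproteasome, were 0.390 ± 0.125 and 0.584 ± 0.0509 in siR-Con and 1.30 ± 0.189 and 1.36 ± 0.237 in siR-GAL3 (SD, n = 3 each). TAP1, which pumps peptides to class I molecules, was 1.36 ± 0.204 and 2.67 ± 0.794 (SD, n = 3 each). None of these 3 genes overlapped between the groups, with log2 fold changes of 0.73, 0.57 and 0.62 for PSMB8, PSMB9 and TAP1, against 9.01% of all genes without overlap and higher. TAP2, the partner of TAP1, was at 0.0120 or less in every library and overlapped (log2 fold change 0.0060, limma unadjusted p = 0.272). RT1-DOB, a chain of the DO inhibitor of DM, was 0.0202 to 0.0233 in siR-Con against 0.0202, 0.103 and 0.0106 in siR-GAL3, so replicate 2 was again highest and replicate 3 lowest.

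**Figure D3:**
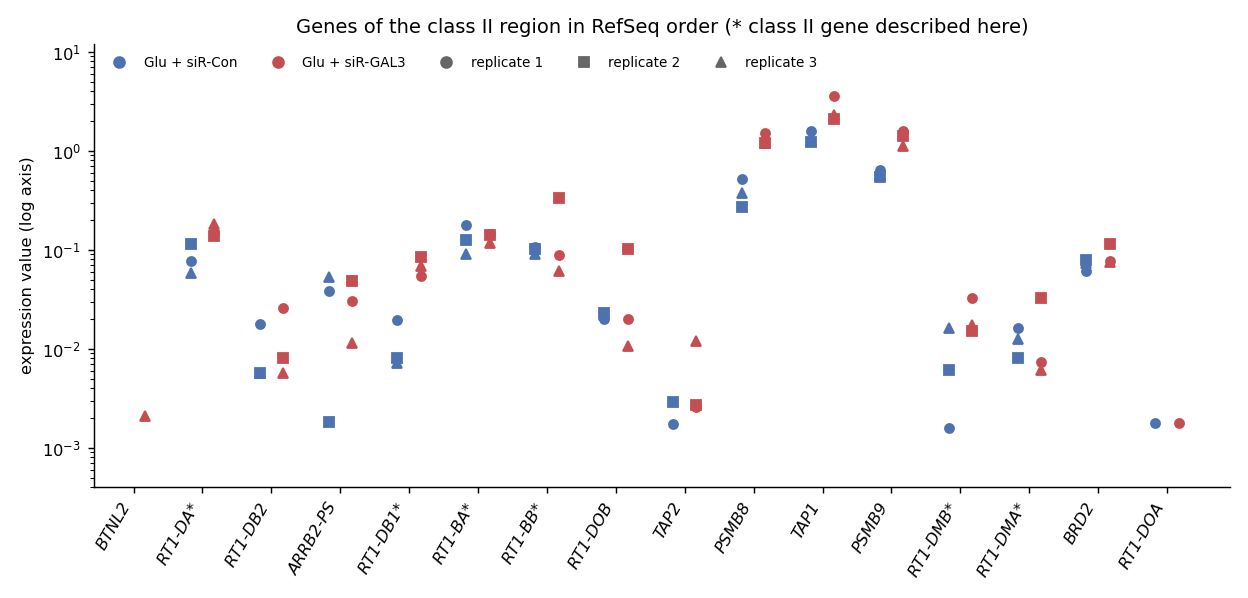
Expression value (log axis) of 16 genes of the class II region in their RefSeq order, by library and group, and 10 of 96 values at or below 0.0005 are not drawn. The siR-GAL3 points lie apart from the siR-Con points in RT1-DA, RT1-DB1, PSMB8, TAP1 and PSMB9, and not in RT1-BA, RT1-BB or the DM and DO genes.

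None of the factors that bind the X and Y boxes passed a test. Of RFX5, RFXAP, RFXANK, NFYA, NFYB, NFYC and CREB1, 6 were found and tested in the main fit, 3 higher and 3 lower, with none at an unadjusted p under 0.05 and a median log2 fold change of 0.0021. CREB1 had the smallest p (log2 fold change -0.23, limma unadjusted p = 0.142). NFYA and NFYC had log2 fold changes of -0.11 and 0.08.

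Of 10 genes of endosomal antigen processing, all were tested, and 3 were higher at an unadjusted p under 0.05 against 4.41% of the 8495 genes tested, while none was lower at that level against 4.25%. Of the 10 genes 4 were without overlap and higher and none lower, against 10.3% of the genes tested in either direction. Cathepsin S (CTSS), which cuts the invariant chain, was 14.0 ± 0.956 in siR-Con and 17.5 ± 1.05 in siR-GAL3 (SD, n = 3 each; log2 fold change 0.30, limma unadjusted p = 0.00724). Cathepsin C (CTSC) and cathepsin H (CTSH) had log2 fold changes of 0.35 and 0.18. Of the 10 genes 8 were higher and 2 lower, which were CTSL and CTSB, with log2 fold changes of -0.19 and -0.16. The list summed to 312.1 to 359.8 in siR-Con and 327.4 to 351.8 in siR-GAL3, so its sum overlapped. None of the 10 met the fold criteria, which 0.259% of the genes tested met as higher and 0.0589% as lower. Without log transformation, where 1 unit is the threshold, CTSS, CTSC and CTSH passed as higher, with differences of 3.46, 1.49 and 1.46 units. Of all 17648 genes 151 passed in this way. A difference of 1 unit is a smaller relative change in genes at a high level, so passing depends on the level. The median log2 fold change of the list was 0.13, and that of all genes tested was -1.19e-05.

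Among 4 tested genes of class II turnover and costimulation, CD86 was the most different. CD86, a costimulatory ligand of T cells, was 1.09 ± 0.175 in siR-Con and 2.06 ± 0.0717 in siR-GAL3, with no overlap (SD, n = 3 each; log2 fold change 0.56, limma unadjusted p = 0.00016, adjusted p = 0.101). The other costimulatory genes CD80 and CD40 overlapped between the groups, with means of 0.159 and 0.188 for CD80 and 0.147 and 0.179 for CD40. LAG3, a receptor that binds class II and also under the filter, had values of 0.0690, 0.0801 and 0.0450 in the siR-Con libraries against 0.0227, 0.0243 and 0.0349 in the siR-GAL3 libraries, without overlap (log2 fold change -0.05, limma unadjusted p = 0.00983). CD4, the receptor that binds class II and is also found on rat microglia, had a log2 fold change of -0.45 (limma unadjusted p = 0.0153), and MIF, a ligand of CD74, had one of 0.05.

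On the route from interferon gamma to CIITA, the receptor genes were read at higher levels than CIITA itself. Of the 6 tested genes of this route 3 were higher at an unadjusted p under 0.05, against 4.41% of all genes tested, among them the receptor chains IFNGR1 and IFNGR2, with log2 fold changes of 0.32 and 0.23. IRF1, which acts on the CIITA promoter, was 0.902 ± 0.180 and 0.932 ± 0.103 (SD, n = 3 each) and overlapped. Of 10 interferon gamma induced genes 2 passed the filter, and both were higher at an unadjusted p under 0.05, with a log2 fold change of 0.76 for GBP2. The class I presentation list shares TAP1, TAP2, PSMB8 and PSMB9 with the region above, and of these only TAP1 passed the filter. The list had 8 tested genes, all higher, 6 of them at an unadjusted p under 0.05 in limma (4.41% of all genes tested). By the fold criteria 3 were higher (0.259% of all genes tested). These were B2M, RT1-A1 and RT1-A2, with log2 fold changes of 1.14, 1.19 and 1.20. RT1-A1 shares its 6 values with other RT1-A rows.

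The cell types that carry class II were followed by their markers. Of 17 microglia and macrophage markers 16 were tested, 14 of them higher and 7 at an unadjusted p under 0.05, against 4.41% of all genes tested, led by CD68, PTPRC and AIF1 with log2 fold changes of 0.54, 0.43 and 0.57. The homeostatic markers CX3CR1, P2RY12 and TMEM119 had ratios of means of 1.03, 1.02 and 1.03 and overlapped. The summed level of the 17 markers was 145.2 to 174.0 in siR-Con and 185.6 to 207.7 in siR-GAL3, so this sum did not overlap between the groups either. By replicate the sum was 145.2, 171.8 and 174.0 in siR-Con and 207.7, 187.6 and 185.6 in siR-GAL3. Whether it goes with the RT1-D chains within a group was not tested, because 3 libraries with values corrected within groups cannot show it. In these bulk libraries more cells of a type and more RNA per cell cannot be told apart. Per 1000 units of the microglia sum, RT1-DB1 had values of 0.134, 0.0474 and 0.0417 in the siR-Con libraries against 0.264, 0.453 and 0.374 in the siR-GAL3 libraries, and these did not overlap. RT1-DA per 1000 units was 0.532, 0.673 and 0.334 in siR-Con and 0.715, 0.731 and 0.978 in siR-GAL3, again without overlap. Per 1000 units of AIF1, a microglial gene picked after its values were seen, RT1-DB1 was 3.91 to 11.6 in siR-Con and 20.8 to 23.3 in siR-GAL3. RT1-DA per 1000 units of AIF1 was 31.3 to 66.3 in siR-Con and 36.8 to 60.8 in siR-GAL3, which overlapped. All class II genes together made up 0.480% to 0.657% of the microglia sum in siR-Con and 0.498% to 0.977% in siR-GAL3.

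**Figure D4:**
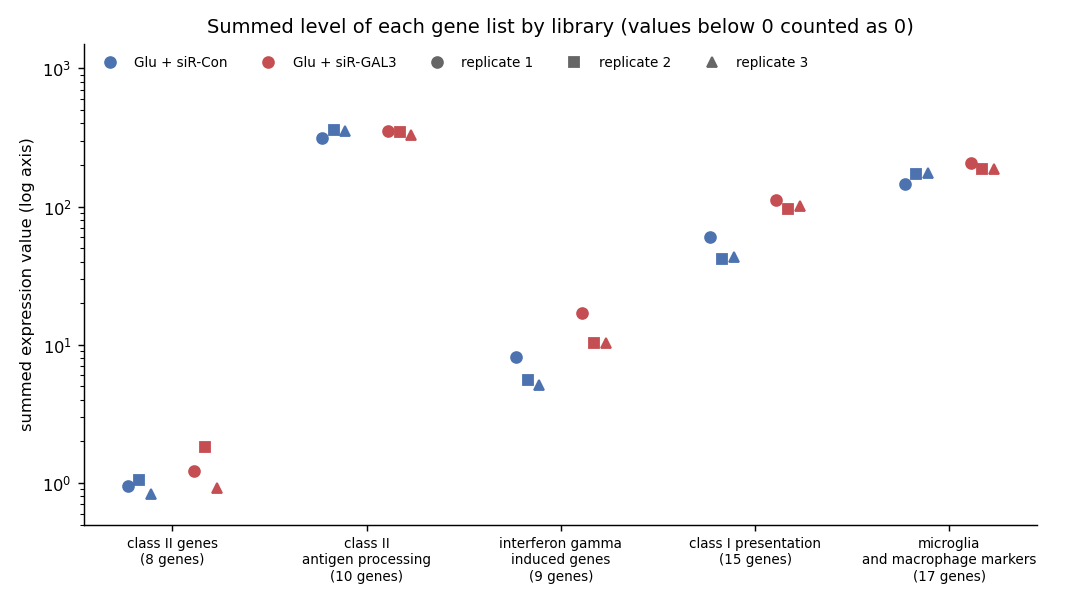
Summed expression value (log axis, values below 0 counted as 0) of the class II genes, class II antigen processing, interferon gamma induced genes, class I presentation and the microglia and macrophage markers, with a point for each library, coloured by group and shaped by replicate. The microglia and macrophage sums are 145.2 to 174.0 in siR-Con and 185.6 to 207.7 in siR-GAL3, while the class II sums, 0.835 to 1.05 and 0.924 to 1.83, overlap.

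The summed markers of perivascular macrophages, dendritic cells and B cells overlapped between the groups, and those of T cells did not. The 6 perivascular macrophage markers summed to 8.32 to 10.5 in siR-Con and 7.85 to 9.42 in siR-GAL3. Of the 4 tested, 1 was lower at an unadjusted p under 0.05 in limma, against 4.25% of all genes tested. This was CD163 (log2 fold change -0.24, without overlap). The 6 dendritic cell markers found summed to 4.05 to 4.91 and 3.17 to 4.48. Most of this sum came from ITGAX, at 1.19 to 1.92 over all libraries, and BATF3, at 1.45 to 2.74. FLT3, XCR1 and CLEC9A were each at 0.0366 or less in every library. The dendritic cell marker ZBTB46 was 0.422 to 0.443 in siR-Con and 0.3598 to 0.399 in siR-GAL3, without overlap (limma unadjusted p = 0.0628). The 5 B cell markers summed to 0.0352 to 0.0792 and 0.0379 to 0.0648. CD79B was the highest of them, at 0.0192 to 0.0755 over all libraries, and MS4A1 and CD79A were each at 0.0108 or less. The 3 T cell markers found summed to 0.0209 to 0.0309 and 0.0639 to 0.107, with CD3G at 0.0112 or less and LCK between 0.00962 and 0.0897. For the label of the cultures, the 9 neuron markers found summed to 30.6 to 37.7 over all libraries, with RBFOX3 between 0.300 and 0.429. The 8 astrocyte markers summed to 927.6 to 1069 in siR-Con and 801.5 to 865.7 in siR-GAL3, and the 8 oligodendrocyte lineage markers to 881.3 to 939.8 and 875.8 to 1174, so glial transcripts were abundant beside those of neurons. The 4 endothelial markers found summed to 1.06 to 1.24 in siR-Con and 1.10 to 1.18 in siR-GAL3, and the 5 fibroblast markers found to 43.0 to 50.6 and 33.0 to 38.1. The part of these lists in the RT1-D values was not tested.

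The genes whose profile over the 6 libraries was most like that of CD74, by the root-mean-square difference of centred log2(value + 1) values, were RILPL2, CGRRF1, FAM89B, COMMD10 and WDR18, at 0.0230 to 0.0335. All 5 were highest in siR-GAL3 replicate 2. This measure depends on the size of the variation as well as its pattern, so genes near 0 cannot score as alike.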

How the data were processed

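The deposited values were made by the authors, who aligned reads with STAR, counted them per gene with HTSeq, estimated FPKM, and afterwards applied a batch correction, a standardization and a correction of intra-group differences. The tools for the last steps and the genome build are not given in the sources used here. The sources name both ribosomal depletion and poly-T selection. The deposited values are therefore an expression value derived from FPKM and not FPKM itself, and 2376 of 17648 rows hold a value below 0, although FPKM was the planned unit. No reads can be recovered, so no counting error is given.

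After raising negative values to 0 and taking log2(value + 1), siR-GAL3 was compared with siR-Con by limma 3.58.1 (R 4.3.3, trended variances) in the 8495 genes whose mean reached 1. The class II genes come from the same fit without the filter. Adjusted p-values are Benjamini-Hochberg values over all genes fitted. Exact permutation tests were two-sided, on the deposited values (Python 3.11.15, NumPy 2.4.6). The limma fit was tested on simulated data. All 6 columns were mapped by name, and the groups follow the sample names. All 8 symbols matched RefSeq. Promoters came from RefSeq windows of 250 bases before and 50 after the start.

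Named were all 8 genes, LGALS3, the up to 3 genes of each list with the smallest p, any that met the fold criteria, and the 5 genes most like CD74. Region neighbours and single list genes without a fold change rank were named outside this rule, after their values were seen. They were RT1-DB2, RT1-DOB, PSMB8, PSMB9, TAP1, TAP2, CTSL, CTSB, CD80, CD40, LAG3, IRF1, CX3CR1, P2RY12, TMEM119, ZBTB46 and low markers. Some genes picked by this rule are not reported here. The class II genes and the lists were chosen with earlier results of these data known. Alternatives were other pseudocounts, filters and scalings, no intensity trend, no log transformation, blocks for replicate number and library set, genes without values below 0, and each library left out in turn.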

Additional observations from a re-analysis of the deposited data

How the results depend on the processing

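RT1-DA kept its direction and an unadjusted p under 0.05 in limma in 16 of 16 alternatives (0.00348 to 0.0400, adjusted 0.276 to 0.772). RT1-DB1 did so in 15 of 15 (0.000344 to 0.00640, adjusted 0.185 to 0.688). The groups did not overlap in these 2 genes, so neither another pseudocount nor leaving out a library could reverse their direction. Leaving out each library in turn left 2 to 3 class II genes at an unadjusted p under 0.05 in limma, the third being RT1-DMB without siR-Con replicate 3. The filter at a mean of 0.1 removes RT1-DB1 and leaves 1, and filters at 1 or 5 leave no class II gene. With a pseudocount of 0.01, chosen after seeing the data, RT1-DB1 had a log2 fold change of 1.91 and was the 1 class II gene meeting the fold criteria. CIITA kept its direction in 14 of 14 alternatives. The median of the class II genes was 0.21 with a pseudocount of 0.1, 0.29 with 0.01, 0.0816 with a mean of at least 0.1, 0.0703 without genes holding a value below 0, -0.0042 with a block for library set, and 0.0028 to 0.0543 with each library left out, lowest without siR-GAL3 replicate 2. With the set block, which gives siR-GAL3 replicate 2 no weight, the log2 fold changes were -0.0057 for CD74, -0.0110 for RT1-BA, -0.0368 for RT1-BB (limma unadjusted p = 0.0308) and -0.0088 for RT1-DMA. Without siR-GAL3 replicate 2 they were -0.00039 for RT1-BA, -0.0328 for RT1-BB and -0.0079 for RT1-DMA, and RT1-BA was -0.0207 without siR-Con replicate 3 and -0.0011 without siR-GAL3 replicate 1. With each library left out the range was -0.0207 to 0.0336 for RT1-BA, -0.0328 to 0.131 for RT1-BB and -0.0079 to 0.0107 for RT1-DMA. The chain ratios of RT1-DA to RT1-DB1 also did not overlap after quantile normalization, with mean log2 ratios of 2.87 in siR-Con and 1.19 in siR-GAL3. This scaling keeps the order of genes within a library and hardly moved the ratios, so it cannot test the siR-Con RT1-DB1 values near 0.

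Over all genes, 22 were higher and 5 lower by the fold criteria. These counts were 34 higher with a pseudocount of 0.1, 6 and 0 with a mean of at least 5, 151 and 165 without log transformation (a difference of 1 unit), and 14 and 1 without genes holding a value below 0. The number lower was 9 without a filter and 10 with a mean of at least 0.1. With each library left out, 20 to 27 were higher and 2 to 6 lower, the 2 without siR-Con replicate 1 or 2. Adjusted p under 0.05 was found for 0 genes (736 at an unadjusted p under 0.05 in limma), 106 with the set block and 0 to 167 with a library left out, which were 17 without siR-Con replicate 1, 4 without siR-Con replicate 3, 1 without siR-GAL3 replicate 1 and 167 without siR-GAL3 replicate 2. In limma, LGALS3 was -4.03 with a pseudocount of 0.1 (unadjusted p = 0.0894), -2.91 without a filter (unadjusted p = 0.0762) and with a mean of at least 5 (unadjusted p = 0.0515), and -3.88 to -1.35 with each library left out. The cause of these shifts was not tested.

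Whether the replicate numbers pair the libraries is not known. Deviations of the same-numbered libraries correlated at -0.1701, -0.0699 and 0.0441, and 1 of 6 libraries correlated best with its own number. With 3 libraries per group and values corrected within groups, these correlations cannot exclude pairing. Replicate 1 of both groups shared a library set, and so did replicate 3 of both groups. With the replicate block, 6 genes had an adjusted p under 0.05, and RT1-DA (limma unadjusted p = 0.0400) and RT1-DB1 (limma unadjusted p = 0.00543) were again the 2 class II genes at an unadjusted p under 0.05 in limma. The number of libraries, the low values and the correction within groups limit what the spread shows.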

Other observations

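LCK, a kinase of T cells, had values of 0.00962, 0.0252 and 0.0151 in the siR-Con libraries against 0.0629, 0.0897 and 0.0581 in the siR-GAL3 libraries, with no overlap (log2 fold change 0.07, limma unadjusted p = 0.00165, adjusted p = 0.262 in the fit without a filter). It was picked after its values were seen, and its level was close to that of RT1-DB1. The other T cell markers found, CD3G and CD2, were between -0.0034 and 0.0157. NLRC5, the class I counterpart of CIITA, was 0.156 ± 0.0335 in siR-Con and 0.261 ± 0.0730 in siR-GAL3 (SD, n = 3 each), also without overlap (log2 fold change 0.12, limma unadjusted p = 0.0395), whereas CIITA was at or below 0.00514 in every library.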
